A study of Sus scrofa with 18 samples.

Results

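The subunits of the Mediator and Integrator complexes were followed through the first cleavages of porcine parthenogenetic embryos. Members were all genes of the deposited expression table whose symbol is MED or INTS followed by a number. This gave 43 of the 20983 genes in the table, 29 of Mediator and 14 of Integrator, and all 43 passed the filter on low counts that left 13187 genes for testing. The 6 groups were 2-cell, 4-cell and 8-cell embryos from oocytes matured in FLI medium, and 2-cell, 4-cell and 8-cell embryos from oocytes matured in DMEM. FLI medium was based on TCM 199 and contained EGF, FGF2, IGF1, LIF and the gonadotropins PMSG and hCG, and the DMEM control contained EGF, IGF1, FGF and the same gonadotropins. Every group had 3 libraries, each made from the total RNA of a pool of 20 embryos. All embryos came from oocytes of prepubertal gilts that were activated without sperm by ionomycin and 6-DMAP and then cultured in PZM-3, so none carries a paternal genome, and no group was fertilised.

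Mediator is a large assembly that bridges transcription factors bound at enhancers and RNA polymerase II at promoters. Its head and middle modules contact the polymerase, its tail receives many activators, MED14 runs through the core as a backbone, and a separable kinase module with CDK8 or CDK19 and cyclin C docks on the core through MED13. Integrator acts after initiation: an endonuclease module cleaves nascent RNA, including small nuclear RNA precursors and transcripts of promoter-proximally paused polymerase, and a phosphatase module brings PP2A to the polymerase. Early embryos start with oocyte transcripts and depend on their own transcription from genome activation onwards, which in the pig is placed around the stage of the second cleavage.

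The highest library total was 6781185 counts. The share of mapped reads assigned to genes was between 44.6% and 73.0% in all libraries but one and was 21.4% in that one, 8-cell FLI replicate 3. Counts of 8-cell FLI replicate 2 differed most from the other libraries of its group, with a chi-square per degree of freedom of 80.1 and 84.5, against 4.39 to 23.9 for the other pairs of replicates, and 8-cell DMEM replicate 1 had the lowest total, 1737985 counts. The 10 oocyte and early embryo markers found in the table (GDF9, BMP15 and others) summed to between 6780 and 7420 counts scaled to library size (CPM) in 2-cell libraries, between 1300 and 3600 CPM in 4-cell libraries and between 346 and 4340 CPM in 8-cell libraries, and none was at 0 in any library. Cumulus and granulosa markers summed to between 78.5 and 237 CPM, most of it VCAN. FSHR, CYP11A1, HAS2 and TNFAIP6 averaged at most 1.07 CPM in any group. The highest group averages of PTX3 (1.13 CPM), AMHR2 (1.23 CPM) and INHBA (2.93 CPM) were in 8-cell FLI embryos, and that of FST (1.68 CPM) in 2-cell FLI embryos. Among the blood and other somatic markers found in the table the highest group average was 15.9 CPM, for COL1A1 in 4-cell DMEM embryos. Levels below are CPM scaled by TMM factors unless TPM is named. A gene was called at a Benjamini-Hochberg adjusted p under 0.05 over all 13187 genes. Fold changes are log2. Their standard error (SE) was not estimated directly but taken as the fold change, without sign, divided by the square root of the F of its test. Values are shares of the RNA counted in a pool, so fewer transcripts per embryo and more RNA from other genes cannot be told apart, and nothing says that replicates of a group came from separate batches of oocytes, so p-values cover the spread between these pools.

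**Figure D1:**
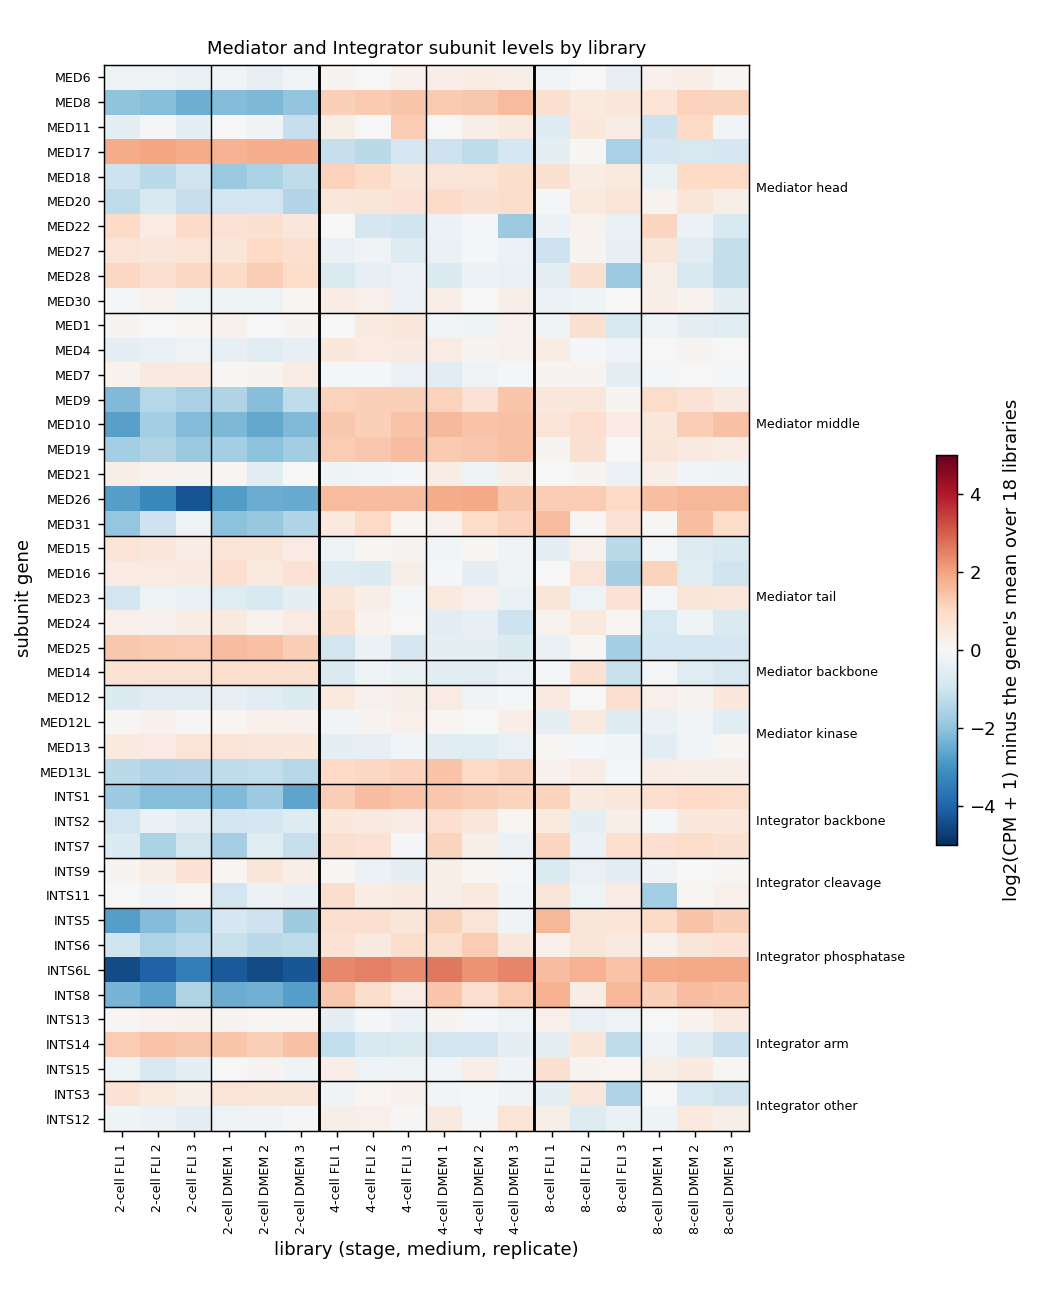
Level of each of the 43 subunit genes in each of the 18 libraries, as log2(CPM + 1) minus the gene's mean over the 18 libraries (blue, below the mean; red, above it; the scale ends at 5 on either side). Libraries run by stage, with FLI left of DMEM in each stage, and genes by module; the colours change mainly between the 2-cell and 4-cell libraries, in both directions, and INTS6L, with 0.0 to 1.01 CPM in 2-cell libraries, shows the largest shift.

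The step from the 2-cell to the 4-cell stage changed most subunit genes, in both directions. In FLI embryos 20 of the 43 members were higher at the 4-cell stage, 10 were lower and 13 were not called, against 34.6% higher and 27.2% lower among all genes tested. In DMEM embryos 20 members were also higher, 10 lower and 13 not called, against 35.2% higher and 28.4% lower among all genes. The share of members called higher was thus 46.5% in both media and the share called lower 23.3%. The same 20 genes were higher in both media, and 9 genes were lower in both, with INTS9 called lower in FLI embryos alone and MED24 in DMEM embryos alone. Whether these 2 genes differ between media in this step was tested and neither interaction passed. The median log2 fold change of the members was 0.53 in FLI and 0.58 in DMEM embryos, beside 0.18 and 0.16 over all genes tested.

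By complex, FLI embryos had 13 of 29 Mediator genes up and 8 down at the later stage (median log2 fold change 0.27), and 13 were higher and 9 lower in DMEM embryos (median 0.36). Integrator had 7 of 14 higher, with 2 lower, in FLI embryos (median 0.86), and 7 were higher and 1 lower in DMEM embryos (median 1.08). The Mediator middle module had 6 of 9 genes higher and 1 lower in both media, the Integrator phosphatase module all 4 higher and the Integrator backbone all 3 higher, whereas the Mediator head had 4 higher and 4 lower of 10. Scaling by the upper quartile lowered the median of all genes to 0.04 in FLI and 0.01 in DMEM embryos. Under it 18 members were higher and 12 lower in FLI embryos, beside 31.9% higher and 30.8% lower among all genes. MED6 and MED23 were no longer called there, and INTS13 and MED15 were called lower. In DMEM embryos 18 members were higher and 13 lower under this scaling, beside 32.2% higher and 32.4% lower among all genes.

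**Figure D2:**
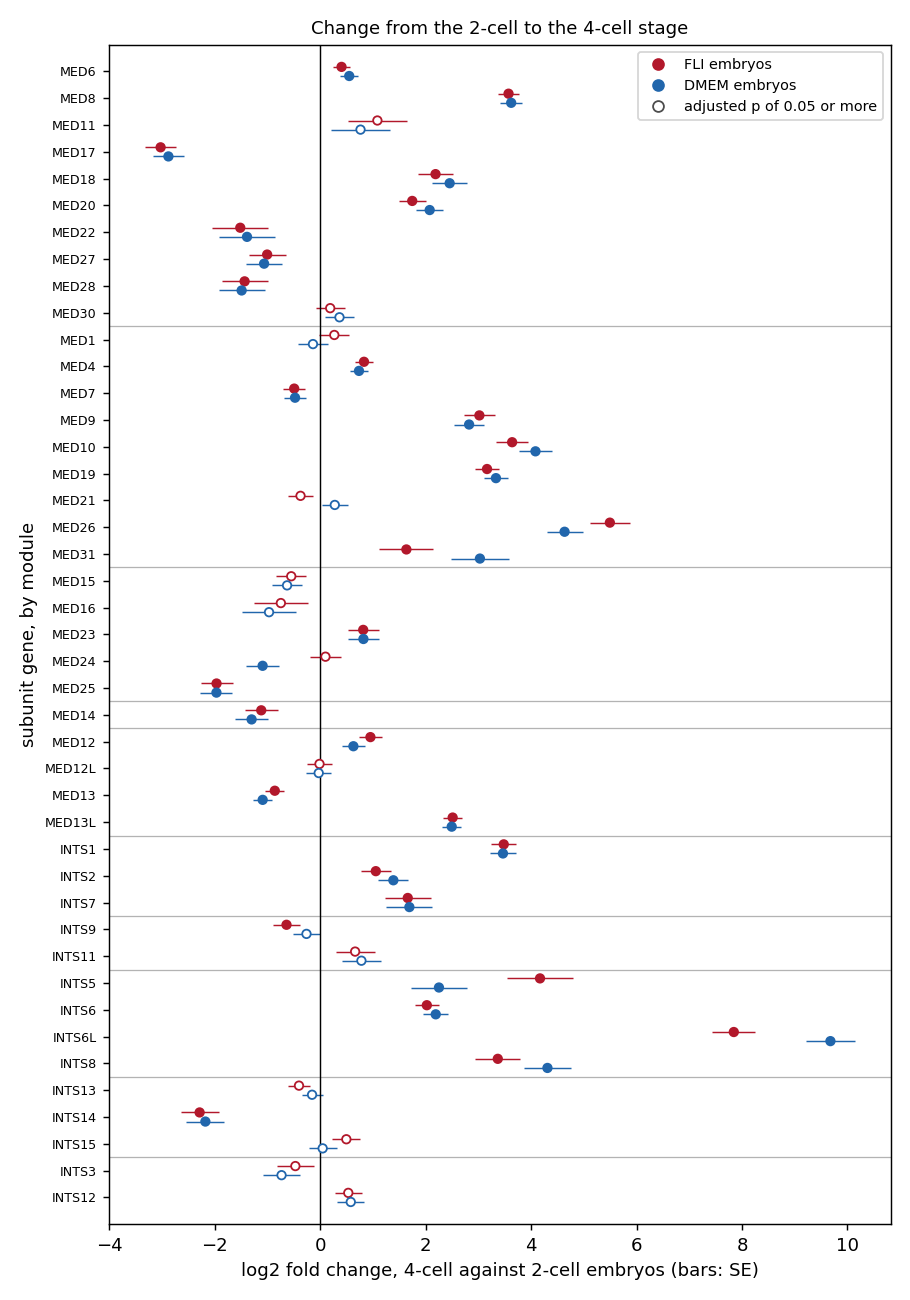
Log2 fold change of each subunit gene in 4-cell against 2-cell embryos (x axis), with bars for the SE, in FLI embryos (red, upper point of each pair) and DMEM embryos (blue); open points have an adjusted p of 0.05 or more, and grey lines part the modules. The paired points lie close together for most genes, from MED17 at -3.03 in FLI and -2.88 in DMEM embryos to INTS6L at 7.84 in FLI and 9.68 in DMEM embryos.

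In the Mediator head, MED8, which ties MED18 and MED20 to the rest of the head, had 165, 179 and 189 CPM in 4-cell FLI embryos, against 16.9, 15.6 and 12.3 CPM in 2-cell FLI embryos. In DMEM embryos it had 179, 185 and 213 CPM at the 4-cell stage, against 14.9, 14.4 and 17.4 CPM at the 2-cell stage. No 4-cell library overlapped a 2-cell library, and MED8 rose in FLI embryos (log2 fold change 3.57 ± 0.20 SE, adjusted p = 8.61e-11) and in DMEM embryos (log2 fold change 3.62 ± 0.20 SE, adjusted p = 5.83e-11). MED20, which pairs with MED18 at the mobile end of the head, had 36.2, 36.5 and 39.7 CPM in 4-cell FLI and 9.45, 13.8 and 10.1 CPM in 2-cell FLI embryos. It had 46.9, 41.5 and 44.2 CPM in 4-cell DMEM and 11.7, 11.7 and 8.13 CPM in 2-cell DMEM embryos. Again the stages were fully apart, and MED20 rose in FLI embryos (log2 fold change 1.74 ± 0.25 SE, adjusted p = 1.1e-05) and in DMEM embryos (log2 fold change 2.08 ± 0.25 SE, adjusted p = 1.35e-06). Its partner MED18 rose by a similar amount, with log2 fold changes of 2.19 in FLI and 2.45 in DMEM embryos. MED6 rose by less, 0.40 in FLI and 0.55 in DMEM embryos, and its FLI call was lost when any single library of the 18 was left out. Here and below, a fit without 1 library also filtered the genes anew, with 13368 to 14231 tested against 13187. Effects of the library and of the filter cannot be told apart in such losses. Both calls of MED6 were also lost with no filter on low counts. Its DMEM call was lost without 2-cell, 4-cell or 8-cell DMEM replicate 2, 2-cell FLI replicate 1 or any 4-cell FLI replicate.

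MED17, a central scaffold of the head that touches RNA polymerase II, went the other way. It had 31.7, 27.4 and 39.5 CPM in 4-cell FLI embryos, against 262, 285 and 257 CPM in 2-cell FLI embryos. DMEM embryos gave 34.2, 29.3 and 37.8 CPM at the 4-cell stage, against 241, 250 and 256 CPM at the 2-cell stage. Every 4-cell library was far under every 2-cell library, and MED17 fell in FLI embryos (log2 fold change -3.03 ± 0.30 SE, adjusted p = 8.63e-08) and in DMEM embryos (log2 fold change -2.88 ± 0.30 SE, adjusted p = 1.46e-07). MED28, a head subunit of animals, was the most abundant Mediator transcript of 2-cell embryos and also fell: it had 267, 335 and 362 CPM in 4-cell FLI embryos, against 904, 792 and 913 CPM in 2-cell FLI embryos (log2 fold change -1.44 ± 0.44 SE, adjusted p = 0.00865). In DMEM embryos MED28 had 275, 360 and 346 CPM at the 4-cell stage, against 871, 1050 and 841 CPM at the 2-cell stage (log2 fold change -1.49 ± 0.44 SE, adjusted p = 0.00659). MED22 had 7.28, 3.74 and 3.24 CPM in 4-cell FLI and 16, 10.1 and 15.5 CPM in 2-cell FLI embryos (log2 fold change -1.52 ± 0.53 SE, adjusted p = 0.0186). Among DMEM embryos the gene had 5.86, 7.13 and 1.42 CPM at the 4-cell stage and 13, 13.3 and 11.6 CPM at the 2-cell stage (log2 fold change -1.39 ± 0.53 SE, adjusted p = 0.0287). It was the lowest member per length, and it was lower in both media, but the FLI call was lost without 2-cell FLI replicate 3 or 4-cell FLI replicate 2 or 3, and the DMEM call without 2-cell DMEM replicate 1 or 2 or 4-cell DMEM replicate 3. MED27 fell by 1.01 and 1.07 on the log2 scale in FLI and DMEM embryos, and its FLI call was lost without 4-cell FLI replicate 3. MED11 (1.08 and 0.76) and MED30 (0.19 and 0.36) were not called.

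Within Mediator, the middle module held most of the large rises. MED26 (ENSSSCG00000013862, chromosome 2, 60984256 to 61035655 of Sscrofa11.1, the build of all positions given here), the subunit that brings elongation factors of the super elongation complex to the polymerase, had 82.7, 81 and 79.7 CPM in 4-cell FLI embryos, against 3.15, 2.02 and 0.404 CPM in 2-cell FLI embryos. With DMEM the levels were 101, 103 and 70.4 CPM at the 4-cell stage, against 3.03, 4.03 and 3.85 CPM at the 2-cell stage. At the 2-cell stage it was low, with 25 counts over the 3 FLI libraries, 2 of them in replicate 3, and 62 over the 3 DMEM libraries. At the 4-cell stage all 6 libraries lay between 70.4 and 103 CPM. MED26 rose in FLI embryos (log2 fold change 5.49 ± 0.37 SE, adjusted p = 6.9e-10) and in DMEM embryos (log2 fold change 4.63 ± 0.34 SE, adjusted p = 1.63e-09). The ratio of its summed counts was 46.8 in FLI embryos (95% exact interval of counting error 31.5 to 72.7) and 24.8 in DMEM embryos (19.2 to 32.5).

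MED19, another middle module subunit, had 95.9, 103 and 116 CPM in 4-cell FLI embryos, against 11.5, 13.3 and 10.3 CPM in 2-cell FLI embryos. DMEM pools held 99.4, 101 and 112 CPM at the 4-cell stage and 11.3, 8.64 and 11 CPM at the 2-cell stage. All 4-cell libraries stood above all 2-cell libraries, and MED19 rose in FLI embryos (log2 fold change 3.16 ± 0.23 SE, adjusted p = 1.86e-09) and in DMEM embryos (log2 fold change 3.33 ± 0.23 SE, adjusted p = 8.45e-10). MED10 and MED9, small subunits of the same module, rose with it, MED10 by 3.64 in FLI and 4.08 in DMEM embryos and MED9 by 3.02 and 2.82. Of the 27227 bases of MED9, 12556 overlap a gene on the opposite strand (ENSSSCG00000018055), and whether counting used strand is not stated. MED31, with 2-cell levels of 1.73 to 8.47 CPM, had log2 fold changes of 1.63 in FLI and 3.03 in DMEM embryos, and its FLI call was lost without 2-cell FLI replicate 1 or without 4-cell FLI replicate 2. MED4, which was already abundant, rose by 0.83 in FLI and 0.73 in DMEM embryos.

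MED7, a partner of MED21 in the hinge of the middle module, was the one member of the module that was lower. It had 55.9, 53.8 and 47.3 CPM in 4-cell FLI and 64.4, 78.8 and 78.1 CPM in 2-cell FLI embryos (log2 fold change -0.49 ± 0.20 SE, adjusted p = 0.0437). In the DMEM groups it stood at 38.4, 50.6 and 53.4 CPM at the 4-cell stage and 60.4, 64 and 74.2 CPM at the 2-cell stage (log2 fold change -0.48 ± 0.20 SE, adjusted p = 0.0493). The stages did not overlap within either medium, but the difference was small and the call was lost in both media without filtering and in several fits that left out 1 library. MED21 (-0.38 and 0.28) and MED1, the subunit that binds nuclear receptors (0.27 and -0.14), were not called and had opposite signs in FLI and DMEM embryos.

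The tail showed smaller and mixed changes. MED25, a target of acidic activators, had 29.7, 46.6 and 31.6 CPM in 4-cell FLI embryos, against 147, 140 and 135 CPM in 2-cell FLI embryos. For DMEM embryos the values were 41, 41.7 and 34.5 CPM at the 4-cell stage, against 165, 158 and 136 CPM at the 2-cell stage. All 4-cell libraries were under all 2-cell libraries, and MED25 fell in FLI embryos (log2 fold change -1.97 ± 0.30 SE, adjusted p = 2.25e-05) and in DMEM embryos (log2 fold change -1.97 ± 0.30 SE, adjusted p = 2.15e-05). MED23, through which the activator ELK1 acts, had 96.7, 80.5 and 60.3 CPM in 4-cell FLI and 32.4, 53.8 and 48.6 CPM in 2-cell FLI embryos (log2 fold change 0.81 ± 0.29 SE, adjusted p = 0.0222). It had 89.5, 76.6 and 50.8 CPM in 4-cell DMEM and 41.5, 36.5 and 44.9 CPM in 2-cell DMEM embryos (log2 fold change 0.82 ± 0.29 SE, adjusted p = 0.0211). No 4-cell library fell below a 2-cell library of its medium, but upper quartile scaling ended the MED23 call in both media. The FLI call was also lost without 2-cell FLI replicate 1, 4-cell FLI replicate 1 or 2, 4-cell DMEM replicate 2 or 8-cell DMEM replicate 2, and the DMEM call without 2-cell or 4-cell DMEM replicate 1 or 2 or 4-cell FLI replicate 2. MED24 had 21.1, 13.6 and 11.9 CPM in 4-cell FLI and 14.3, 13.8 and 15.5 CPM in 2-cell FLI embryos (log2 fold change 0.10 ± 0.30 SE, adjusted p = 0.789). It had 7.73, 8.65 and 5.2 CPM in 4-cell DMEM and 16.9, 13.3 and 16 CPM in 2-cell DMEM embryos (log2 fold change -1.09 ± 0.31 SE, adjusted p = 0.00488). The FLI libraries of both stages overlapped, whereas the DMEM libraries did not. MED15 (-0.55 and -0.63) and MED16 (-0.75 and -0.97) were not called in either medium by the main fit. All their 4-cell libraries were under the 2-cell libraries of the same medium, however. DESeq2 and limma voom called MED15 lower in DMEM embryos, and fits of only the groups compared called both genes lower in both media.

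MED14, the backbone that joins head, middle and tail, had 145, 208 and 189 CPM in 4-cell FLI embryos, against 394, 391 and 393 CPM in 2-cell FLI embryos. The DMEM pools showed 161, 167 and 190 CPM at the 4-cell stage, against 428, 421 and 431 CPM at the 2-cell stage. The 2-cell pools agreed closely with each other and lay above every 4-cell pool, and MED14 fell in FLI embryos (log2 fold change -1.12 ± 0.32 SE, adjusted p = 0.00535) and in DMEM embryos (log2 fold change -1.30 ± 0.32 SE, adjusted p = 0.00175).

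The kinase module exists in alternative forms because MED12 and MED13 each have a paralog. MED13L (ENSSSCG00000009864, chromosome 14, 36063644 to 36383800) had 816, 837 and 899 CPM in 4-cell FLI embryos, against 158, 144 and 146 CPM in 2-cell FLI embryos. In DMEM embryos it had 1090, 806 and 869 CPM at the 4-cell stage, against 170, 172 and 149 CPM at the 2-cell stage. It rose in every comparison of a 4-cell with a 2-cell library, in FLI embryos (log2 fold change 2.51 ± 0.18 SE, adjusted p = 1.05e-09) and in DMEM embryos (log2 fold change 2.49 ± 0.18 SE, adjusted p = 9.35e-10). MED13 (ENSSSCG00000017672, chromosome 12, 36333191 to 36429291) had 82.9, 88 and 105 CPM in 4-cell FLI embryos, against 161, 155 and 187 CPM in 2-cell FLI embryos. DMEM embryos gave 77.8, 76.3 and 90.5 CPM at the 4-cell stage, against 182, 174 and 166 CPM at the 2-cell stage. Here the 4-cell libraries were all under the 2-cell libraries, and MED13 fell in FLI embryos (log2 fold change -0.86 ± 0.18 SE, adjusted p = 0.000569) and in DMEM embryos (log2 fold change -1.09 ± 0.18 SE, adjusted p = 5.79e-05). Per length, MED13L averaged 263 ± 2.55 TPM and MED13 26.9 ± 2.29 TPM in 4-cell FLI embryos (SD, n = 3), against 60.3 ± 2.89 TPM for MED13L and 64 ± 5.71 TPM for MED13 in 2-cell FLI embryos. The paralogs were thus at like levels at the 2-cell stage and far apart at the 4-cell stage.

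MED12, which activates the kinase, had 92.9, 76.3 and 84.1 CPM in 4-cell FLI and 41, 45.2 and 44.8 CPM in 2-cell FLI embryos. Among DMEM embryos the gene had 88.4, 57.8 and 63.3 CPM at the 4-cell stage and 48.9, 45.5 and 41.2 CPM at the 2-cell stage. MED12 was higher at the 4-cell stage in every library, in FLI embryos (log2 fold change 0.95 ± 0.23 SE, adjusted p = 0.00138) and in DMEM embryos (log2 fold change 0.63 ± 0.22 SE, adjusted p = 0.0206), and the DMEM call was lost under upper quartile scaling and in 8 of the fits that left out 1 library. Its paralog MED12L had 109, 130 and 142 CPM in 4-cell FLI and 125, 137 and 123 CPM in 2-cell FLI embryos (log2 fold change -0.01 ± 0.24 SE, adjusted p = 0.961). In DMEM embryos MED12L had 127, 122 and 148 CPM at the 4-cell stage and 128, 140 and 138 CPM at the 2-cell stage (log2 fold change -0.03 ± 0.24 SE, adjusted p = 0.917). Those ranges overlapped in both media. Per length MED12 averaged 29.2 ± 3.62 TPM and MED12L 21.2 ± 1.97 TPM in 4-cell FLI embryos, against 19.7 ± 1.14 TPM for MED12 and 28.1 ± 2.05 TPM for MED12L in 2-cell FLI embryos, so that MED12L led at the 2-cell stage. Genes on the opposite strand, among them P2RY12 and P2RY14, lie within the span of MED12L, and whether counting used strand is not stated.

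Among the Integrator genes the backbone rose as a group. INTS1, the largest subunit and a scaffold of the complex, had 230, 285 and 262 CPM in 4-cell FLI embryos, against 26.6, 21.7 and 21.4 CPM in 2-cell FLI embryos. With DMEM the levels were 251, 228 and 210 CPM at the 4-cell stage, against 20.6, 26.9 and 15 CPM at the 2-cell stage. The stages were far apart, and INTS1 rose in FLI embryos (log2 fold change 3.48 ± 0.24 SE, adjusted p = 7.78e-10) and in DMEM embryos (log2 fold change 3.46 ± 0.24 SE, adjusted p = 6.97e-10). INTS7 had 32.7, 31.4 and 17 CPM in 4-cell FLI and 11.2, 5.54 and 9.28 CPM in 2-cell FLI embryos (log2 fold change 1.66 ± 0.44 SE, adjusted p = 0.00329). In DMEM embryos INTS7 had 41.3, 22.9 and 14.9 CPM at the 4-cell stage and 4.98, 11.7 and 7.7 CPM at the 2-cell stage (log2 fold change 1.69 ± 0.44 SE, adjusted p = 0.00266). Its 4-cell libraries were more scattered than those of INTS1 but all above the 2-cell libraries. INTS2 rose by 1.05 in FLI and 1.39 in DMEM embryos.

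The phosphatase module gave the largest change of all members. INTS6L (ENSSSCG00000012695, chromosome X, 111011865 to 111072935), a paralog of INTS6, had 116, 125 and 112 CPM in 4-cell FLI embryos, against 0, 0.336 and 1.01 CPM in 2-cell FLI embryos. DMEM pools held 138, 104 and 120 CPM at the 4-cell stage, against 0.216, 0 and 0.143 CPM at the 2-cell stage. At the 2-cell stage the gene was thus at or near the limit that a count of 0 allows, 3 counts or 0.442 to 0.892 CPM by library, and at the 4-cell stage all 6 libraries lay between 104 and 138 CPM. The summed counts were 1535 over the 4-cell and 7 over the 2-cell FLI libraries, a ratio of 242 after scaling (95% exact interval of counting error 117 to 603). They were 1508 over the 4-cell and 2 over the 2-cell DMEM libraries, a ratio of 1020 (interval 282 to 8440). The rise passed the test in FLI embryos (log2 fold change 7.84 ± 0.41 SE, adjusted p = 2.88e-11) and in DMEM embryos (log2 fold change 9.68 ± 0.47 SE, adjusted p = 1.01e-11), with fitted values that depend on the few 2-cell counts. For this gene the intervals of counting error are wider than these SE imply.

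INTS6 itself, which tethers PP2A to Integrator, was present throughout. It had 98, 80.3 and 109 CPM in 4-cell FLI embryos, against 28.6, 19.5 and 23 CPM in 2-cell FLI embryos. In the DMEM groups it stood at 103, 142 and 87.6 CPM at the 4-cell stage, against 26.4, 22.5 and 24 CPM at the 2-cell stage. All 4-cell libraries were above all 2-cell libraries, and INTS6 rose in FLI embryos (log2 fold change 2.02 ± 0.23 SE, adjusted p = 6.83e-07) and in DMEM embryos (log2 fold change 2.19 ± 0.23 SE, adjusted p = 2.26e-07). Per length the paralogs averaged 81.4 ± 6.78 TPM (INTS6L) and 75 ± 10.2 TPM (INTS6) in 4-cell FLI embryos, against 0.403 ± 0.458 TPM (INTS6L) and 24.3 ± 4.61 TPM (INTS6) in 2-cell FLI embryos. The paralogs were far apart at the 2-cell stage, and at the 4-cell stage they differed by less than the SD between pools. INTS8, which contacts PP2A, had log2 fold changes of 3.37 in FLI and 4.31 in DMEM embryos and rose in both. INTS5 had 10.8, 10.8 and 9.19 CPM in 4-cell FLI embryos, against 0, 0.504 and 1.01 CPM in 2-cell FLI embryos (log2 fold change 4.17 ± 0.63 SE, adjusted p = 1.76e-05). In DMEM embryos INTS5 had 13.8, 9.92 and 4.96 CPM at the 4-cell stage, against 2.81, 2.3 and 0.999 CPM at the 2-cell stage (log2 fold change 2.25 ± 0.53 SE, adjusted p = 0.00133). It rested on 8 counts over the 2-cell FLI and 32 over the 2-cell DMEM libraries, and the ratio of summed counts was 18.6 in FLI (95% exact interval 9.18 to 44.0) and 5.04 in DMEM embryos (interval 3.38 to 7.69).

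Neither measured subunit of the cleavage module was called higher. INTS11, the RNA endonuclease, had 42.3, 30 and 32.2 CPM in 4-cell FLI and 22.3, 20 and 23.8 CPM in 2-cell FLI embryos (log2 fold change 0.66 ± 0.37 SE, adjusted p = 0.127). For DMEM embryos the values were 27.9, 32.6 and 20.5 CPM at the 4-cell stage and 11.3, 18.6 and 17.1 CPM at the 2-cell stage (log2 fold change 0.78 ± 0.37 SE, adjusted p = 0.0757). Each 4-cell library lay above the 2-cell libraries of its medium, and without 8-cell FLI replicates 2 and 3 and 8-cell DMEM replicate 1 INTS11 was called higher in both media. INTS9, the inactive homolog that pairs with INTS11, had 18.5, 14.5 and 13 CPM in 4-cell FLI and 19.8, 22 and 30.1 CPM in 2-cell FLI embryos (log2 fold change -0.64 ± 0.26 SE, adjusted p = 0.0363). In DMEM embryos INTS9 had 22.5, 18.8 and 17.2 CPM at the 4-cell stage and 19, 28.2 and 23 CPM at the 2-cell stage (log2 fold change -0.26 ± 0.25 SE, adjusted p = 0.37). It was lower in FLI embryos, while its DMEM libraries overlapped. The FLI call was lost without 2-cell FLI replicate 2 or 3, 4-cell FLI replicate 2 or 3, or 2-cell DMEM replicate 3.

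In the arm, INTS14 (ENSSSCG00000004936, chromosome 1, 163567777 to 163603184), which pairs with INTS13, had 16.5, 22.9 and 24.6 CPM in 4-cell FLI embryos, against 97.7, 111 and 104 CPM in 2-cell FLI embryos. The DMEM pools showed 20.6, 20.4 and 28.3 CPM at the 4-cell stage, against 107, 93.5 and 114 CPM at the 2-cell stage. The groups were fully apart, and INTS14 fell in FLI embryos (log2 fold change -2.29 ± 0.36 SE, adjusted p = 2.89e-05) and in DMEM embryos (log2 fold change -2.18 ± 0.36 SE, adjusted p = 4.48e-05). Of the 35408 bases of INTS14, 21022 overlap HACD3 on the opposite strand. INTS13 itself (-0.40 and -0.16) was not called. INTS15 had 33.9, 22.5 and 22.4 CPM in 4-cell FLI and 22.3, 15 and 19 CPM in 2-cell FLI embryos (log2 fold change 0.49 ± 0.27 SE, adjusted p = 0.116). In DMEM embryos INTS15 had 24.4, 34.1 and 24.1 CPM at the 4-cell stage and 26.8, 30 and 23.3 CPM at the 2-cell stage (log2 fold change 0.04 ± 0.26 SE, adjusted p = 0.889), so its stages overlapped there. The genes INTS3 and INTS12 were listed apart from the arm. INTS3, which is also part of the SOSS single-stranded DNA binding complex, had 247, 306 and 328 CPM in 4-cell FLI and 464, 402 and 358 CPM in 2-cell FLI embryos (log2 fold change -0.47 ± 0.35 SE, adjusted p = 0.243). In DMEM embryos INTS3 had 258, 275 and 252 CPM at the 4-cell stage and 452, 427 and 427 CPM at the 2-cell stage (log2 fold change -0.73 ± 0.35 SE, adjusted p = 0.0729). All its 4-cell libraries were under the 2-cell libraries without a call, and it was called lower in both media once 3 8-cell libraries (FLI replicates 2 and 3 and DMEM replicate 1) were left out. INTS12, a PHD finger subunit, had 61.4, 59 and 52.2 CPM in 4-cell FLI and 42.4, 40.8 and 36.3 CPM in 2-cell FLI embryos (log2 fold change 0.53 ± 0.26 SE, adjusted p = 0.0787). In DMEM embryos INTS12 had 68.2, 47.6 and 80.5 CPM at the 4-cell stage and 41.3, 43.6 and 46.5 CPM at the 2-cell stage (log2 fold change 0.58 ± 0.25 SE, adjusted p = 0.0543). Its stages were also apart without a call by the main fit. DESeq2 called INTS12 higher in DMEM embryos, and fits of only the groups compared called it higher in both media.

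**Figure D3:**
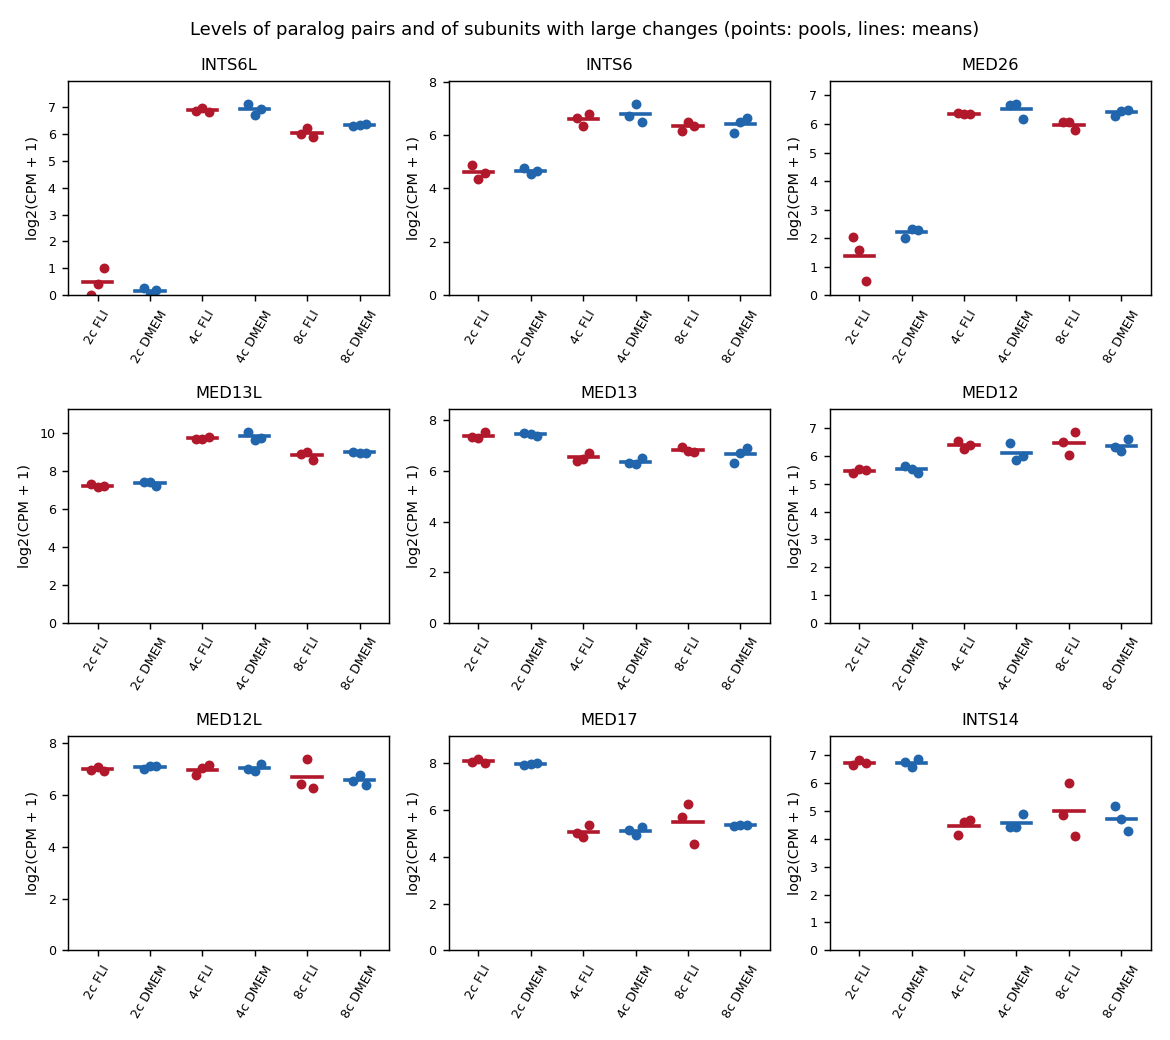
Levels of the 3 paralog pairs and of MED26, MED17 and INTS14 in each pool, as log2(CPM + 1), with stage and medium on the x axis (2c, 4c and 8c for 2-, 4- and 8-cell embryos; FLI in red, DMEM in blue; lines are group means). At the 2-cell stage INTS6L starts near 0 and MED26 at a low level, MED13L rises where MED13 falls, and MED17 and INTS14 fall.

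The shares of the modules in the RNA of each complex differed between the stages. The head held 26.7% ± 0.293 of the summed Mediator TPM in 4-cell FLI embryos, against 42.0% ± 0.809 in 2-cell FLI embryos, and 28.3% ± 2.2 in 4-cell DMEM, against 42.4% ± 2.22 in 2-cell DMEM embryos (SD, n = 3). The middle module held 45.7% ± 0.909 in 4-cell FLI, against 25.0% ± 1.53 in 2-cell FLI embryos, and the kinase module 14.1% ± 0.245 in 4-cell FLI, against 6.38% ± 0.159 in 2-cell FLI embryos. Most of the difference in the kinase module share was in MED13L, which held 10.9% ± 0.126 in 4-cell FLI, against 2.23% ± 0.0981 in 2-cell FLI embryos, while MED13 held 1.11% ± 0.0965, MED12L 0.88% ± 0.0813 and MED12 1.21% ± 0.151 in 4-cell FLI, against 2.37% ± 0.235 (MED13), 1.04% ± 0.0685 (MED12L) and 0.73% ± 0.0425 (MED12) in 2-cell FLI embryos. The tail held 10.5% ± 0.668 in 4-cell FLI, against 19.1% ± 1.31 in 2-cell FLI embryos. No 4-cell library overlapped a 2-cell library in the shares of the head, middle, kinase and tail modules. MED28 alone made up 7.17% ± 0.832 of Mediator TPM in 4-cell FLI embryos, against 22.7% ± 1.63 in 2-cell FLI embryos. MED4, a middle subunit, was first by group mean at the 4-cell and 8-cell stages in both media. In 8-cell FLI replicate 2, though, MED28 was above MED4, with 455 against 392 TPM. In Integrator the phosphatase module held 25.8% ± 1.91 in 4-cell FLI, against 3.64% ± 0.637 in 2-cell FLI embryos, and the backbone 18.5% ± 1.08 in 4-cell FLI, against 4.17% ± 0.164 in 2-cell FLI embryos. By group mean INTS3 was the first Integrator transcript in all 6 groups, with 25.7% ± 3.32 in 4-cell FLI and 44.1% ± 3.77 in 2-cell FLI embryos. In single 8-cell libraries INTS13 was above it: 111 against 107 TPM in DMEM replicate 2 and 117 against 78.6 TPM in DMEM replicate 3. The same held in 8-cell FLI replicate 3, with 95.4 against 74.1 TPM.

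**Figure D4:**
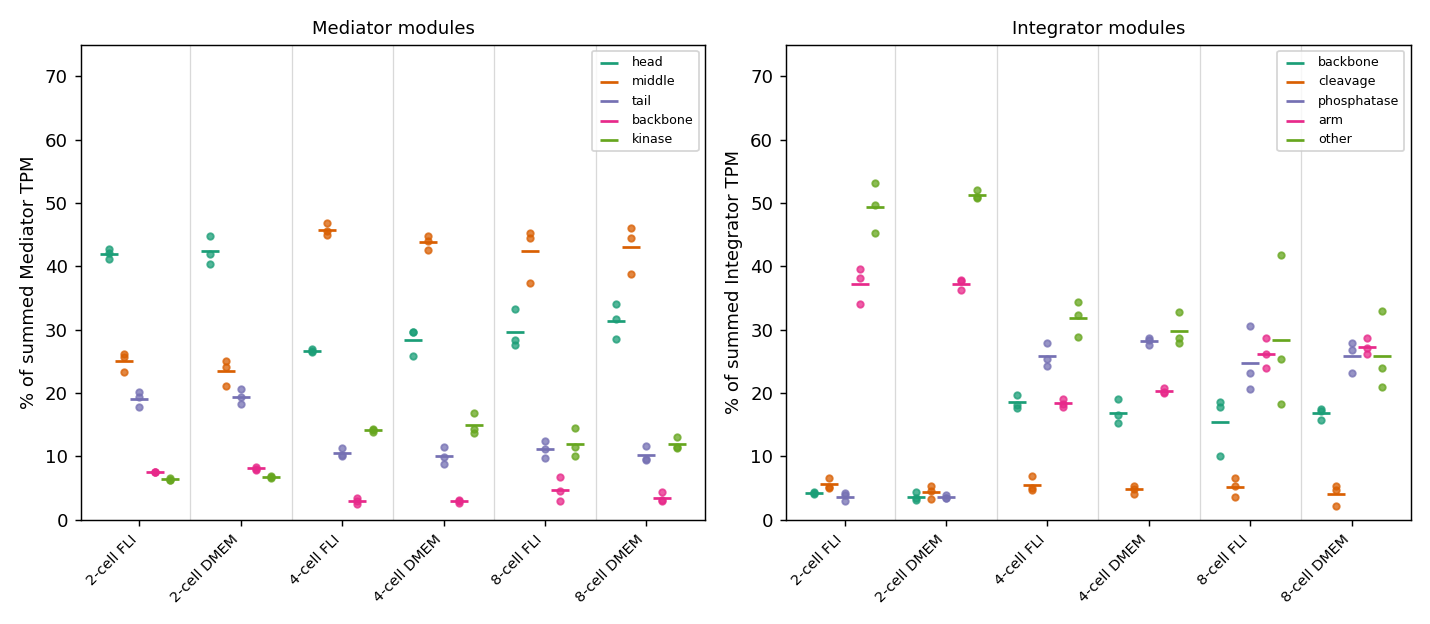
Share of each module in the summed TPM of Mediator (left) and Integrator (right), in percent, for the 6 groups on the x axis; points are libraries and dashes group means. The head gives way to the middle module between the 2-cell and 4-cell stages (the head at 26.7% in 4-cell and 42.0% in 2-cell FLI embryos), and the phosphatase module of Integrator stands between 20.6% and 30.5% in all 4-cell and 8-cell libraries.

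The summed TPM of each complex moved less than many of its parts. Mediator TPM summed to 2700 ± 25.3 in 2-cell, 2410 ± 5.3 in 4-cell and 2080 ± 567 in 8-cell FLI embryos, and to 2690 ± 51.9, 2220 ± 23.0 and 1810 ± 213 in 2-, 4- and 8-cell DMEM embryos. Integrator TPM summed to 799 ± 40.0, 757 ± 30.5 and 709 ± 103 in 2-, 4- and 8-cell FLI embryos, and to 816 ± 7.77, 714 ± 54.0 and 630 ± 52.8 in the same stages of DMEM embryos. The Mediator sum was lower in every 4-cell library than in every 2-cell library, while the 8-cell FLI libraries ran from 1618 to 2715 TPM. This depended on the scale: summed RPKM of Mediator averaged 554, 557 and 352 in 2-, 4- and 8-cell FLI embryos and 563, 513 and 354 in 2-, 4- and 8-cell DMEM embryos, with no drop at the 4-cell stage in FLI embryos and the larger drop at the 8-cell stage in both media. Summed RPKM of Integrator averaged 164, 175 and 118 in 2-, 4- and 8-cell FLI embryos and 170, 165 and 123 in 2-, 4- and 8-cell DMEM embryos. The share of mapped reads assigned to genes was 62.8% to 69.1% in 4-cell and 21.4% to 63.1% in 8-cell libraries. Its part in the lower RPKM sums of 8-cell embryos was not tested. Over all libraries MED4 (390 TPM), MED28 (333 TPM) and INTS3 (229 TPM) were the highest members, and MED22 (6.3 TPM), INTS5 (7.25 TPM) and MED24 the lowest. MED4 averaged 363 ± 31.3, 494 ± 38.5 and 398 ± 49.3 TPM in 2-, 4- and 8-cell FLI embryos, and 336 ± 17.5, 405 ± 26.8 and 342 ± 41.6 TPM in 2-, 4- and 8-cell DMEM embryos. Its CPM were 258, 234 and 245 in 4-cell FLI, against 125, 140 and 150 in 2-cell FLI embryos, and 238, 198 and 209 in 4-cell DMEM, against 135, 121 and 133 in 2-cell DMEM embryos, without overlap.

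Genes that work with these complexes were counted in the same step, where 34.6% of all genes tested were higher and 27.2% lower in FLI embryos and 35.2% higher and 28.4% lower in DMEM embryos. Of the 3 kinase module partners, CCNC, which encodes cyclin C, rose by 3.99 in FLI and 4.54 in DMEM embryos, CDK19 had 1.03 (not called) in FLI and 1.61 (called) in DMEM embryos, and CDK8 was not called in either medium. Among 20 tested genes of polymerase pausing and elongation, 14 were higher and 3 lower in FLI embryos, and 13 higher and 4 lower in DMEM embryos. SUPT4H1, the smaller DSIF subunit, averaged 112 ± 16.3 CPM in 4-cell FLI, against 0.785 ± 1.08 CPM in 2-cell FLI embryos, and ELL2, a super elongation complex subunit, rose by 3.54 in FLI and 3.41 in DMEM embryos. The 12 tested genes of small nuclear RNA transcription and export had 6 higher and 3 lower in FLI, and 7 higher and 3 lower in DMEM embryos. There SNAPC1, of the factor that binds small nuclear RNA promoters, rose by 3.51 and 3.90, and NCBP2, a cap-binding subunit, by 2.09 and 1.94, in FLI and DMEM embryos. Of 10 enhancer coactivator and cohesin genes, 6 were higher and 1 lower in both media, and the cohesin genes STAG2 (3.53 in FLI, 3.81 in DMEM) and RAD21 (2.52 in FLI, 2.50 in DMEM) had the smallest p. The 7 tested PP2A and SOSS partners of Integrator had 3 higher and 0 lower in FLI, and 2 higher and 1 lower (PPP2R1B) in DMEM embryos, with PPP2R1A, the PP2A scaffold, at 0.86 and 0.78 and NABP2, of the SOSS complex, at 1.85 and 1.69.

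Between the 4-cell and the 8-cell stage few subunits moved. In 8-cell against 4-cell FLI embryos 0 of 43 members were higher and 3 were lower, MED19, MED8 and MED13L, against 0.804% higher and 2.24% lower among all genes tested. All 3 had risen in the step before. MED19 had 43.7, 67.4 and 39.8 CPM in 8-cell FLI embryos, against 95.9, 103 and 116 CPM in 4-cell FLI embryos (log2 fold change -1.06 ± 0.21 SE, adjusted p = 0.0202). MED8 had 124, 99.5 and 107 CPM in 8-cell FLI embryos, against 165, 179 and 189 CPM in 4-cell FLI embryos (log2 fold change -0.69 ± 0.18 SE, adjusted p = 0.0482). MED13L had 475, 523 and 389 CPM in 8-cell FLI embryos, against 816, 837 and 899 CPM in 4-cell FLI embryos (log2 fold change -0.88 ± 0.17 SE, adjusted p = 0.0175). In none of the 3 did an 8-cell library reach a 4-cell library. The fall left each above its 2-cell libraries, and DMEM embryos had values of the same sign without a call. There MED19 had 60.2, 53.5 and 50.7 CPM at the 8-cell stage, against 99.4, 101 and 112 CPM at the 4-cell stage (log2 fold change -0.93 ± 0.21 SE, adjusted p = 0.123). MED8 had 116, 159 and 154 CPM in 8-cell DMEM, against 179, 185 and 213 CPM in 4-cell DMEM embryos (log2 fold change -0.43 ± 0.18 SE, adjusted p = 0.294). MED13L had 525, 505 and 506 CPM in 8-cell DMEM, against 1090, 806 and 869 CPM in 4-cell DMEM embryos (log2 fold change -0.85 ± 0.17 SE, adjusted p = 0.0747). Again no 8-cell library of these genes reached a 4-cell library.

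In 8-cell against 4-cell DMEM embryos 0 members and 0 genes were called (0.0% in either direction by edgeR), with 4 members at an unadjusted p under 0.05 and 771 genes higher and 1136 lower at that level, and DESeq2 called 404 genes and limma voom 22. Log2 fold changes of all 43 members ran from -1.06 to 0.75 in FLI embryos and from -0.93 to 0.82 in DMEM embryos. INTS6L had 63.1, 73.7 and 58.6 CPM in 8-cell FLI, against 116, 125 and 112 CPM in 4-cell FLI embryos (log2 fold change -0.85 ± 0.26 SE, adjusted p = 0.0769), and 78.7, 80.4 and 81.1 CPM in 8-cell DMEM, against 138, 104 and 120 CPM in 4-cell DMEM embryos (log2 fold change -0.59 ± 0.26 SE, adjusted p = 0.305). It was thus lower in every 8-cell library, without a call by edgeR. The other members with large rises stayed well above their 2-cell levels: MED26 had 65.8, 66.2 and 54.2 CPM in 8-cell FLI and 77.6, 87.2 and 88.2 CPM in 8-cell DMEM embryos, and INTS1 210, 133 and 144 CPM in 8-cell FLI and 175, 194 and 185 CPM in 8-cell DMEM embryos. MED17 was still under its 2-cell libraries, with 50.1, 74.6 and 22.5 CPM in 8-cell FLI and 38.8, 40.3 and 39.3 CPM in 8-cell DMEM embryos, as was MED25, with 45.2, 58.3 and 17 CPM in 8-cell FLI and 30.7, 30.2 and 31.1 CPM in 8-cell DMEM embryos. INTS14 had 28, 62.4 and 16.2 CPM in 8-cell FLI and 35.3, 25.2 and 18.2 CPM in 8-cell DMEM embryos, all below its 2-cell libraries.

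The calls of this step changed with the libraries that entered, and each such fit filtered the genes anew. The 3 lower calls of FLI embryos became 0 when any 4-cell FLI library or 8-cell FLI replicate 1 was left out, 1 (MED13L) without 8-cell FLI replicate 3 or 4-cell DMEM replicate 2, and 10 without 8-cell FLI replicate 2, where INTS3, INTS6L, MED1, MED9, MED10, MED12L and MED15 were added and 11.3% of all genes were lower. Without 8-cell FLI replicate 3 MED17 was also called higher. MED8 kept its call only without 8-cell FLI replicate 2 or 8-cell DMEM replicate 1. Several members were high in that library: MED28 had 328, 748 and 127 CPM in 8-cell FLI replicates 1, 2 and 3 and 553, 260 and 194 CPM in 8-cell DMEM replicates 1, 2 and 3, and MED14 had 226, 409 and 109 CPM in the FLI and 223, 156 and 136 CPM in the DMEM replicates in that order. The summed oocyte markers stood at 1520, 4340 and 346 CPM in 8-cell FLI and 2550, 878 and 712 CPM in 8-cell DMEM replicates 1, 2 and 3. Replicate 2 was the highest and replicate 3 the lowest of the 8-cell FLI libraries in all of them, and their part in the result was not tested. MED15 (187, 303 and 98.1 CPM), MED1 (309, 591 and 201 CPM) and INTS3 (206, 415 and 98.4 CPM) had the same order in 8-cell FLI embryos. Without the 3 libraries that stand apart (8-cell FLI replicates 2 and 3 and 8-cell DMEM replicate 1), which leaves 1 8-cell FLI pool that is assumed to vary like the other groups, 3 members were lower in FLI embryos (INTS6L, MED13L and MED19) and 6 in DMEM embryos (INTS3, MED1, MED13L, MED15, MED19 and MED28). In that fit 732 of 14247 genes were lower in FLI embryos (5.14%) and 1425 in DMEM embryos.

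None of the following members was called in the step to the 8-cell stage. MED20 had 22.6, 33.5 and 37.6 CPM in 8-cell FLI and 27.2, 37.3 and 29.3 CPM in 8-cell DMEM embryos, and MED7 64.1, 64.2 and 41.7 CPM in 8-cell FLI and 55.6, 57.4 and 53.6 CPM in 8-cell DMEM embryos. MED23 had 98.2, 53.8 and 105 CPM in 8-cell FLI and 60.8, 96.4 and 94.3 CPM in 8-cell DMEM embryos, and MED22 5.89, 8.47 and 5.53 CPM in 8-cell FLI and 16.8, 5.92 and 3.93 CPM in 8-cell DMEM embryos. Among the kinase module genes, MED13 had 122, 108 and 106 CPM in 8-cell FLI and 78.2, 105 and 120 CPM in 8-cell DMEM embryos, still under its 2-cell libraries. MED12 had 90.6, 65.6 and 117 CPM in 8-cell FLI and 78.7, 72.6 and 96.4 CPM in 8-cell DMEM embryos, and MED12L 85.9, 167 and 76.3 CPM in 8-cell FLI and 93.2, 108 and 82.8 CPM in 8-cell DMEM embryos. In Integrator, INTS6 had 70.7, 88.6 and 80.7 CPM in 8-cell FLI and 67.2, 88.8 and 97.5 CPM in 8-cell DMEM embryos, INTS7 39.5, 14.6 and 33.9 CPM in 8-cell FLI and 33.6, 35.9 and 32.1 CPM in 8-cell DMEM embryos, and INTS5 20.6, 9.26 and 9.95 CPM in 8-cell FLI and 12.2, 17.3 and 14.3 CPM in 8-cell DMEM embryos. These 3 stayed above their 2-cell libraries in all 8-cell pools. INTS9 had 10.6, 13.8 and 11.8 CPM in 8-cell FLI and 15.6, 17.5 and 18.6 CPM in 8-cell DMEM embryos, INTS11 34.9, 18.9 and 30.2 CPM in 8-cell FLI and 6.37, 24.8 and 27.5 CPM in 8-cell DMEM embryos, INTS12 61.4, 31.9 and 39.8 CPM in 8-cell FLI and 42.8, 70.8 and 61.4 CPM in 8-cell DMEM embryos, and INTS15 had 46.9, 30.3 and 29.1 CPM in 8-cell FLI and 33, 38.1 and 28.6 CPM in 8-cell DMEM embryos. MED4 had 232, 173 and 154 CPM in 8-cell FLI and 174, 198 and 179 CPM in 8-cell DMEM embryos.

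4-cell FLI embryos were also set against 8-cell DMEM embryos. No member and no gene was called higher or lower (0.0% in each direction by edgeR, with 9 members at an unadjusted p under 0.05; DESeq2 called 420 genes and limma voom 24). The smallest adjusted p among members was 0.0876, for MED19 (log2 fold change 0.94 ± 0.21 SE) and MED13L (0.73 ± 0.17 SE), both higher in all 4-cell FLI than in all 8-cell DMEM libraries. Without the 3 libraries that stand apart 6 members were higher in 4-cell FLI embryos (INTS3, MED1, MED13L, MED15, MED19 and MED28) and INTS13 was lower, where 10.8% of the 14247 genes tested in that fit were higher and 5.14% lower.

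No subunit passed the test between the maturation media. FLI against DMEM gave 0 called members and 0 called genes at each of the 3 stages, over all stages in 1 model, and in the interactions of medium with the steps from 2 to 4 and from 4 to 8 cells (0.0% each by edgeR). At an unadjusted p under 0.05 there were 2, 1 and 2 members at the 2-, 4- and 8-cell stages and 4 over all stages, where 2.15%, 2.31%, 7.85% and 4.55% of all genes reached that level. DESeq2 called 1 gene at the 2-cell, 0 at the 4-cell and 49 at the 8-cell stage, 1 of them a member (MED6), and limma voom called 0 at each stage.

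MED24, a tail subunit and one of the lowest members per length, had the smallest unadjusted p at the 4-cell and 8-cell stages. It had 21.1, 13.6 and 11.9 CPM in 4-cell FLI embryos, against 7.73, 8.65 and 5.2 CPM in 4-cell DMEM embryos (log2 fold change 1.11 ± 0.31 SE, adjusted p = 1). It also had 13.5, 17.1 and 12.5 CPM in 8-cell FLI embryos, against 6.37, 10.1 and 6.79 CPM in 8-cell DMEM embryos (log2 fold change 0.87 ± 0.32 SE, adjusted p = 0.495). At the 2-cell stage it had 14.3, 13.8 and 15.5 CPM in 2-cell FLI embryos, against 16.9, 13.3 and 16 CPM in 2-cell DMEM embryos. The FLI and DMEM libraries of MED24 did not overlap at the 4-cell and 8-cell stages and overlapped at the 2-cell stage. Over all stages its log2 fold change was 0.61 ± 0.21 SE (unadjusted p = 0.00736, adjusted p = 0.999), and the interaction with the step from 2 to 4 cells was 1.19 ± 0.43 SE (unadjusted p = 0.0119, adjusted p = 1.0), so the difference fails the correction over all genes. At the 2-cell stage 6 of 43 members had groups that did not overlap (14%), against 12% of all genes. At the 4-cell stage 3 had groups that did not overlap (6.98%), against 9.82% of all genes, and at the 8-cell stage 5 (11.6%), against 8.88%.

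MED6 had 172, 190 and 140 CPM in 8-cell FLI embryos, against 226, 236 and 201 CPM in 8-cell DMEM embryos (log2 fold change -0.40 ± 0.17 SE, adjusted p = 0.573). It also had 204, 189 and 218 CPM in 4-cell FLI embryos, against 240, 245 and 229 CPM in 4-cell DMEM embryos (log2 fold change -0.23 ± 0.17 SE, adjusted p = 1). All FLI libraries were under all DMEM libraries at both stages. At the 2-cell stage INTS5 had 0, 0.504 and 1.01 CPM in 2-cell FLI embryos, against 2.81, 2.3 and 0.999 CPM in 2-cell DMEM embryos (log2 fold change -1.82 ± 0.68 SE, adjusted p = 1). MED26 had 3.15, 2.02 and 0.404 CPM in 2-cell FLI embryos, against 3.03, 4.03 and 3.85 CPM in 2-cell DMEM embryos (log2 fold change -1.03 ± 0.40 SE, adjusted p = 1). Both differences rest on few counts, and the ranges of both genes overlapped. Over all stages MED26 was at -0.45 ± 0.18 SE (adjusted p = 0.999). The interaction of medium with the step from 2 to 4 cells for INTS5 was 1.92 ± 0.83 SE (adjusted p = 1.0), and with the step from 4 to 8 cells the smallest p among members belonged to MED25 (0.52 ± 0.43 SE, adjusted p = 1.0) and INTS1 (-0.36 ± 0.30 SE, adjusted p = 1.0). For INTS9 no difference of the 2-cell to 4-cell step between the media was called either.

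**Figure D5:**
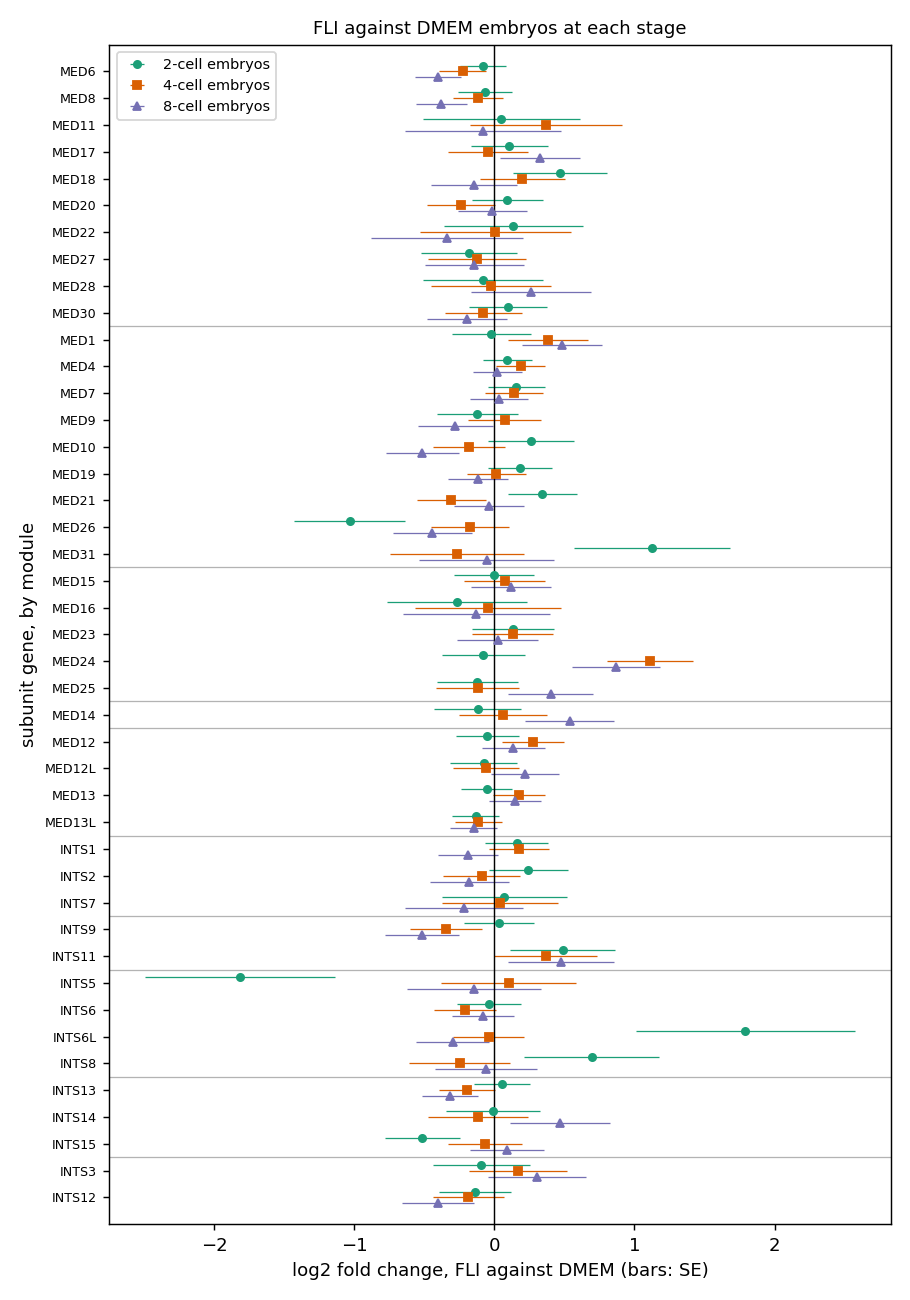
Log2 fold change of each subunit gene in FLI against DMEM embryos (x axis), with bars for the SE, at the 2-cell (circles), 4-cell (squares) and 8-cell (triangles) stages. Most points lie within 0.5 of 0, MED24 stands at 1.11 at the 4-cell and 0.87 at the 8-cell stage, the widest 2-cell values belong to genes with few counts at that stage (INTS6L, INTS5, MED31 and MED26), and no point passed the test.

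Among known subunits, MED29, INTS4 and INTS10 carry no symbol in the table and are not among the 43. Genes with Ensembl identifiers only lie at the positions of these genes in RefSeq's annotation of Sscrofa11.1, and they were chosen after the table was seen. The gene at the place of MED29 (ENSSSCG00000046487), a head subunit, had 10.8, 12.4 and 11.4 CPM in 4-cell FLI embryos, against 3.15, 3.86 and 3.23 CPM in 2-cell FLI embryos, and rose in FLI (1.74 ± 0.34 SE, adjusted p = 0.000261) and DMEM embryos (2.07 ± 0.36 SE, adjusted p = 8.33e-05). The gene at the place of INTS10 (ENSSSCG00000007004), of the arm, had 68.5, 89.2 and 78.4 CPM in 4-cell FLI embryos, against 284, 271 and 242 CPM in 2-cell FLI embryos, and fell in FLI (-1.75 ± 0.31 SE, adjusted p = 9.91e-05) and DMEM embryos (-1.56 ± 0.31 SE, adjusted p = 0.000285). The gene at the place of INTS4 (ENSSSCG00000014884), of the cleavage module, was not called in any stage step. Its levels were 101, 118 and 198 CPM in 4-cell FLI and 146, 168 and 136 CPM in 2-cell FLI embryos, which overlapped.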

How the data were processed

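The authors extracted total RNA from pools of 20 embryos with an RNAqueous Micro kit, made libraries with a SMARTer Stranded Total RNA-Seq v2 Pico kit and sequenced 100 base pairs from both ends on an Illumina NovaSeq. Reads were aligned by bowtie2 and quantified with Illumina Dragen on Sscrofa11.1; the sources used here give neither tool versions nor whether counting used strand. The authors deposited whole-number counts per gene, with TPM and RPKM values (scaled by gene length and library size) beside them; the 18 deposited CPM columns were not used. The members, modules, partner and marker lists were chosen with earlier results of these data known.

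Counts were filtered with filterByExpr, scaled by TMM and tested with edgeR 4.0.16 (quasi-likelihood, 6 group means over 18 libraries; stage and medium as additive terms for the comparison over all stages), with Benjamini-Hochberg adjustment over 13187 genes. The study named DESeq2, which was run as an alternative (version 1.42.0), as were limma voom (3.58.1), other scalings, no filter, subsets of libraries and the thresholds of the study (log2 fold change beyond 1.5 and unadjusted p under 0.05). The fits were tested on simulated data. Library totals of 1737985 to 6781185 counts set the precision, and counting intervals cover counting error only. Overlap with a gene on the opposite strand was found for 15 members, among them MED9, MED12L, INTS14, MED17 (7540 of 36412 bases) and MED31 (1456 of 7204 bases). Every member is named. Values in every library are given for up to 2 members with a positive and 1 with a negative fold change, called or not, with the smallest p in each module (4-cell against 2-cell FLI). They are also given for the 3 paralog pairs, the 2 with the smallest p between media and the 3 with the smallest p in each step to the 8-cell stage. The 3 highest and 3 lowest by TPM were added. Others shown so were chosen after their values were seen. Libraries sharing a replicate number were not treated as paired.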

Additional observations from a re-analysis of the deposited data

How the results depend on the processing

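In 4-cell against 2-cell FLI embryos 17 to 20 members were higher and 6 to 13 lower when 1 library was left out, the 6 without 4-cell FLI replicate 3. Among all genes 27.4% to 33.4% were higher and 21.7% to 30.9% lower in those fits. In DMEM embryos 17 to 22 members were higher and 8 to 13 lower, beside 28.7% to 33.8% higher and 21.7% to 32.1% lower among all genes. Each of these fits filtered the genes anew. The thresholds of the study gave 15 higher and 4 lower in FLI and 15 higher and 3 lower in DMEM embryos, since they require a larger fold. The share of all genes at those thresholds is not given here. For 8-cell against 4-cell FLI embryos limma voom gave 5 lower (4.57% of all genes), DESeq2 5 (4.39%), only the groups compared 0 (0.0%) and the thresholds of the study 0. Leaving out 1 library gave 0 to 10 members lower, beside 0.0% to 11.3% of all genes, and 0 to 1 higher (MED17 without 8-cell FLI replicate 3). For 8-cell against 4-cell DMEM embryos limma voom gave 1 lower, DESeq2 2, the fit without the 3 libraries that stand apart 6, and leaving out 1 library 0 to 2. For 4-cell FLI against 8-cell DMEM embryos limma voom gave 1 higher, DESeq2 2, the fit without the 3 libraries 6 higher and 1 lower, and leaving out 1 library 0 to 3 higher. The thresholds of the study gave 1 member at the 2-cell stage in FLI against DMEM and 2 in the interaction with the step from 2 to 4 cells, and DESeq2 gave 1 (MED6) in 8-cell FLI against 8-cell DMEM embryos. Over all genes, limma voom called 0.159% and DESeq2 2.48% lower in 8-cell against 4-cell DMEM embryos, and fits without 1 library at most 2.21%. In 4-cell FLI against 8-cell DMEM embryos limma voom called 0.167% and DESeq2 2.23% of all genes higher, and fits without 1 library at most 2.9%. Causes were not tested.

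Upper quartile scaling moved the median of all genes in 8-cell against 4-cell FLI embryos to 0.22, against 0.03 with TMM, and the split of calls to 205 higher and 113 lower, against 106 higher and 296 lower with TMM. Library size alone gave 163 higher and 125 lower. Signs of small values turned: MED24 in 4-cell against 2-cell FLI embryos was -0.05 by upper quartile, -0.02 by library size and -0.31 to 0.16 with 1 library left out. INTS15 in 4-cell against 2-cell DMEM embryos was -0.11 by upper quartile, -0.12 by library size, -0.03 without filtering and -0.28 to 0.13 with 1 library left out. MED12L was 0.01 with DESeq2 and with its size factors in DMEM embryos and -0.20 to 0.03 with 1 library left out in FLI embryos. Summed RPKM put the ratio of Mediator sums of 4-cell over 2-cell FLI embryos at 1.0.

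Deviations of same-numbered libraries from their group means correlated at r between -0.239 and 0.399 by pair. Pairs with different numbers were not computed, so these values cannot decide whether same-numbered libraries deviate together. With the replicate block 19 members were higher and 8 lower in 4-cell against 2-cell FLI embryos (34.1% and 26.5% of all genes). In DMEM embryos 20 were higher and 9 lower (34.5% and 27.8%), and 2 were lower in 8-cell against 4-cell FLI embryos (1.13%). INTS6L, INTS5 and MED26 at the 2-cell stage are limited by depth.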
